A study of Mus musculus with 15 samples.

Results

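Polyamine metabolism genes were followed in the colon mucosa of mice fed dietary heme. The list held 10 genes, Odc1, Srm, Sms, Sat1, Amd1, Azin1, Oaz1, Oaz2, Paox and Smox, and its members were all array probe sets whose annotation gives 1 gene symbol equal to a listed name. A probe set is the group of short array probes that reports on 1 transcript. The rule gave 14 probe sets, of 34958 with 1 symbol, and these stood for 7 genes, of 18194. Amd1 and Paox were not analysed here. The 3 probe sets that name Sms list more than 1 symbol, so Sms was not analysed either.

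Each mouse was a male C57BL/6 animal, an inbred laboratory strain, 11 weeks old. For 14 days all ate a diet low in calcium and high in fat, which supplied 40% of the energy. In the heme group (9 mice) the diet held heme, the iron-porphyrin pigment of red meat, at 0.5 umol per g, and in the control group (6 mice) it held none. Colons were opened, washed and scraped, and the RNA of each mouse was put on an array of its own, so the 15 arrays are biological replicates. The series asks how inhibitors of proliferation bear on the turnover of the colon epithelium. Control replicate 5 was not analysed here.

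Putrescine, spermidine and spermine are small positively charged molecules that bind nucleic acids and that dividing cells need. Odc1 makes putrescine from ornithine, and Srm and Sms then add aminopropyl groups, taken from the product of Amd1, to make spermidine and spermine. Sat1 acetylates polyamines, Paox oxidises the acetylated forms, and Smox oxidises spermine directly, with release of hydrogen peroxide. Antizymes such as Oaz1 and Oaz2 bind the ODC1 protein and send it to the proteasome, and Azin1 is a catalytically inactive relative of ODC1 that takes antizyme away. Several of these steps are controlled at the level of protein, whereas the arrays measured messenger RNA only.

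With each gene read through its probe set with the highest mean, Odc1 and Oaz2 were the members whose groups did not overlap. Smox had the largest difference on that reading. For these genes the 250 bases before their annotated start sites are given. They come from RefSeq promoter sequences of build GRCm38.p6, which held 5 of the 7 measured members. Odc1 lies on the plus strand with this stretch at chr12:17544623-17544872, Smox on the plus strand at chr2:131491612-131491861, and Oaz2 on the plus strand at chr9:65676298-65676547. Capitals mark matches, on either strand, to the GC box GGGCGG and to the antioxidant response core TGACNNNGC.
Odc1: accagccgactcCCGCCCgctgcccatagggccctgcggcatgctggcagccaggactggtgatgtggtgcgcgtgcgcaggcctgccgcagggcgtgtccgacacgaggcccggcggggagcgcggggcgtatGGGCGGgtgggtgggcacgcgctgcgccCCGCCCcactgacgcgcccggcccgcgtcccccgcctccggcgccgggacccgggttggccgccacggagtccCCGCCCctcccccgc
Smox: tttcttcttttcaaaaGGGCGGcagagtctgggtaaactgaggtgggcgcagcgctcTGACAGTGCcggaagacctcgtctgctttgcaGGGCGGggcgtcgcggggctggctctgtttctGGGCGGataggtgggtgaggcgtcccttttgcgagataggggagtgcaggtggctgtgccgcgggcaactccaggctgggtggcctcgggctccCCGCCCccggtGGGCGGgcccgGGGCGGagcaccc
Oaz2: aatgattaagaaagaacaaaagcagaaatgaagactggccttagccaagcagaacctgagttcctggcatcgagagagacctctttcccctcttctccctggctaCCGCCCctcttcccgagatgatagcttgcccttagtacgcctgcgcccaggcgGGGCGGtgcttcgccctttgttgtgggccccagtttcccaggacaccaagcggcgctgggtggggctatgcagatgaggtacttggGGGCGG

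The GC box was matched 4 times before Odc1, 6 times before Smox and 3 times before Oaz2, with no overlap between matches, and 32.7% of all 32851 stretches of this length held at least 1. The antioxidant response core was matched in 1 of these 3 stretches, once before Smox, and was present in 10.2% of all stretches. The E-box CACGTG, the motif of Myc and Max, was in 6.02% of all stretches and in none of these 3. Only bases directly before the annotated start sites were searched, so E-boxes within the genes or farther away could not be seen. The lack of a match here therefore does not show that Odc1, Smox or Oaz2 has no E-box. Odc1 had the highest GC content of the 3, at 80.0%, against 68.0% for Smox, 58.0% for Oaz2 and a median of 52.4% over all stretches. The shares over all stretches were not matched for GC content. Of the other measured members with a sequence, Oaz1 held 1 antioxidant response core and 0 GC boxes. Sat1 held 2 GC boxes and 0 antioxidant response cores. A match to a motif does not show that a factor binds there.

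The deposited values are log2 expression, and the floor was set at 4.32, the log2 of a signal of 20. Genes over it on at least 6 arrays were tested, 9257 in all, each through its probe set with the highest mean, and a gene was called where its p-value from limma, adjusted over all tested genes after Benjamini-Hochberg, was under 0.05. Array medians ran from 3.11 to 3.24. All 10 epithelial markers were over the floor, with array means of 12.59 to 12.75 in heme mice and 12.50 to 12.70 in control mice. Of these markers Krt19, Krt20 and Vil1 were called higher, Epcam was called lower, and the other 6 were not called. The 10 measured markers of dividing cells were all called higher with heme, with array means of 9.20 to 9.62 in heme mice and 7.62 to 8.83 in control mice. Of 8 smooth muscle markers 4 were over the floor and all 4 were called lower, with array means of 4.88 to 6.62 in heme mice and 6.08 to 9.76 in control mice. Of these, Actg2 was over the floor in all 6 controls but in only 3 of 9 heme mice. It was thus tested only because of the group where it was high, so its call is not used as support. Ptprc was the only immune marker of 8 over the floor and was called lower, at 5.68 to 7.60 in heme mice and 6.97 to 8.63 in control mice (-1.04 ± 0.26, SE, adjusted p = 0.00369, limma). Of 6 stromal markers 5 were over the floor, and none of the 5 was called. None of 4 endothelial or 4 glial and neuronal markers was over the floor. Control mouse 2 had the highest smooth muscle mean (9.76), and control mouse 4 stood apart in distal colon markers, with a mean of 3.19 against 6.81 to 8.94 in the other controls.

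With heme, the transcripts of putrescine and spermidine synthesis (Odc1, Srm) and of direct spermine oxidation (Smox) rose, the antizyme Oaz2 fell, and the antizyme Oaz1 rose slightly. The acetyltransferase Sat1 and the antizyme inhibitor Azin1 were not called. All 7 measured members were over the floor on all 15 arrays, so none was tested because of only 1 group. Of them 4 were called higher and 1 lower, beside 27.2% of all tested genes called higher and 26.4% called lower. The median log2 difference, heme minus control, was 0.14 over the 7 members and -0.01 over all tested genes. Changes were widespread in these mice, so the count describes the members and does not set them apart from other genes.

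**Figure D1:**
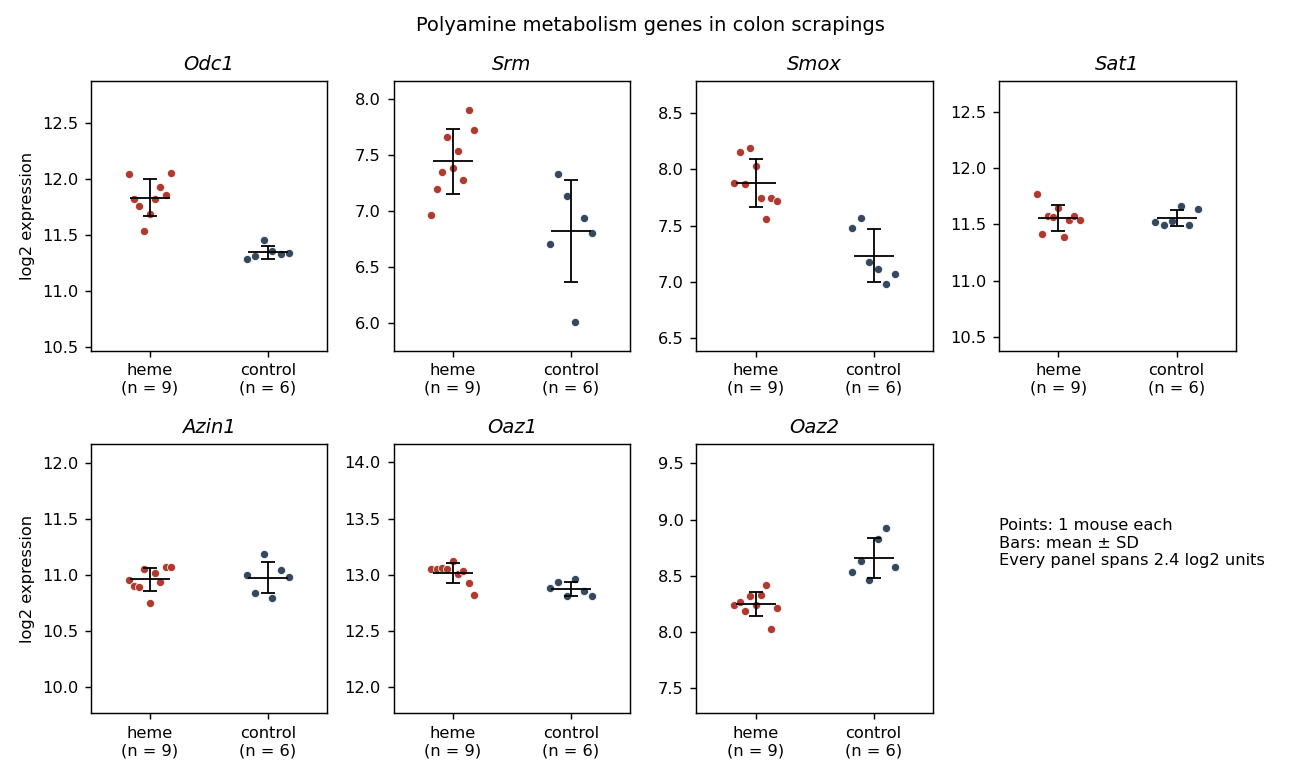
Log2 expression of the 7 measured members, with 1 probe set per gene, in heme mice (left, 9) and control mice (right, 6); points are single mice and bars are the mean with SD, and every panel spans the same height. Odc1 and Oaz2 show no overlap between the diets, Srm, Smox and Oaz1 overlap in part, and in Sat1 and Azin1 the mice of both diets are intermixed.

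Odc1, the first and rate-limiting enzyme of the pathway, was higher with heme in every mouse. Its log2 expression had a lowest value of 11.53, a median of 11.82 and a highest value of 12.05 in heme mice, against 11.29, 11.34 and 11.45 in control mice. The lowest heme mouse, number 4, lay above the highest control, number 3, and such separation upwards was seen for 11.2% of all tested genes. The log2 difference was 0.49 ± 0.07 (SE), a 1.40-fold rise (adjusted p = 6.01e-05, limma), larger in size than that of 77.4% of tested genes. Heme mice also spread more than controls, with 11.83 ± 0.17 (SD, n = 9) against 11.35 ± 0.06 (n = 6).

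All 3 Odc1 probe sets rose, and in each of them all 9 heme mice lay above all 6 controls. The probe set used for the gene, 1437711_x_at, carries the suffix of the manufacturer for probes that may also bind other sequences, and the other two, 1438761_a_at and 1427364_a_at, carry that for probes shared by transcripts of 1 gene. Probe set 1438761_a_at averaged 11.11 ± 0.11 in heme mice and 10.61 ± 0.08 in control mice (SD, n = 9 and 6), a difference of 0.50 ± 0.06 (SE). Probe set 1427364_a_at averaged 7.65 ± 0.32 in heme mice and 6.92 ± 0.11 in control mice, a difference of 0.73 ± 0.13 (SE). The direction therefore did not depend on which probe set was read, while the size did, from 0.49 to 0.73.

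Srm, spermidine synthase, rose as well, with more overlap between mice. Its log2 expression was lowest at 6.96, with a median of 7.38 and a highest value of 7.90, in heme mice, against 6.01, 6.87 and 7.33 in control mice. Of the heme mice 6 lay above all controls, and heme mice 1, 2 and 7 lay within the control range. Control mouse 4, the one low in distal colon markers, had the lowest value, and control mouse 2 the highest among controls. The log2 difference was 0.62 ± 0.18 (SE), or 1.54-fold (adjusted p = 0.00806, limma), and 0.46 without control mouse 4 (adjusted p = 0.0152). With the mean of the smooth muscle markers as a covariate it was 1.00 (adjusted p = 0.0057, limma).

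Odc1, Srm and all 10 measured markers of dividing cells were each higher in the heme group as a whole. This does not mean that they moved together mouse by mouse. Control mouse 4 had the lowest Srm value (6.01) but the highest dividing-cell mean among controls (8.83). Ptprc and all 4 tested smooth muscle markers were lower in the heme group. The part of these shifts in the differences given here was not tested. The smooth muscle mean used as a covariate, above and below, itself differed by diet. It was at 4.88 to 6.62 in heme mice and 6.08 to 9.76 in control mice. Fits with it therefore cannot separate tissue make-up from diet, and a call lost there does not decide between them. In tissue scrapings a change in the number of cells of a type and a change of RNA per cell cannot be told apart.

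Smox, which converts spermine back to spermidine, had the largest difference among the members when each gene was read through its probe set with the highest mean. Its log2 expression ran from 7.56 over a median of 7.87 to 8.19 in heme mice, and from 6.98 over 7.14 to 7.57 in control mice. All heme mice but number 7 lay above every control, and control mouse 2 was the control within the heme range. The log2 difference was 0.65 ± 0.11 (SE), or 1.56-fold (adjusted p = 2.04e-04, limma), larger in size than that of 86.1% of tested genes. A second Smox probe set, 1446509_at, was under the floor on all 15 arrays and gives no measured difference. Averaged with it, Smox was at 0.35 (adjusted p = 0.0213, limma).

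Sat1, which acetylates spermidine and spermine for export or breakdown, showed no difference that could be detected. Its log2 expression had a lowest value of 11.38, a median of 11.57 and a highest value of 11.77 in heme mice, against 11.49, 11.52 and 11.67 in control mice. The control range lay wholly within the heme range. The 95% interval of the difference ran from -0.13 to 0.13 (adjusted p = 0.998, limma).

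The antizymes went in opposite directions. Oaz2 was lower in every heme mouse, with a lowest value of 8.03, a median of 8.24 and a highest value of 8.42, against 8.46, 8.60 and 8.92 in control mice. Such separation downwards was seen for 8.93% of all tested genes, and the gap between the nearest mice, heme mouse 7 and control mouse 3, was small. In log2 terms Oaz2 fell by 0.41, with an SE of 0.08 (adjusted p = 3.44e-04, limma), which is a level 24.7% lower.

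A second Oaz2 probe set, 1426764_at, had a difference of -0.21 ± 0.09 and was not called (SE, adjusted p = 0.0621 over all probe sets, limma). It averaged 7.34 ± 0.10 in heme mice and 7.55 ± 0.25 in control mice (SD, n = 9 and 6), and control mouse 4 was its highest value at 8.03. The third, 1442541_at, was under the floor on all arrays. With the 3 probe sets averaged, Oaz2 was at -0.23 (adjusted p = 0.00677, limma).

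Oaz1, the more widely studied antizyme, rose by a small amount. Its log2 expression had a lowest value of 12.82, a median of 13.05 and a highest value of 13.12 in heme mice, against 12.81, 12.87 and 12.96 in control mice. Heme mice 8 and 9 lay within the control range, and the other 7 above it. The log2 difference was 0.14 ± 0.05 (SE), or 1.10-fold (adjusted p = 0.0318, limma), and was larger in size than that of 30.4% of tested genes. The call was lost without heme mouse 1, 2, 3, 4 or 5 or control mouse 3, 6 or 7, each left out singly (adjusted p from 0.0502 to 0.0706, difference 0.12 to 0.13, limma). It was also lost without a signal filter (adjusted p = 0.0545), after quantile normalization (adjusted p = 0.0615) and with smooth muscle markers as covariate (adjusted p = 0.221). The direction was upward in all of these.

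Azin1, the antizyme inhibitor, was not called with any of its 3 probe sets. The one used for the gene, 1450714_at, had a lowest value of 10.75, a median of 10.95 and a highest value of 11.07 in heme mice, against 10.80, 10.99 and 11.18 in control mice. The mice of both diets were intermixed, and the 95% interval of the difference ran from -0.16 to 0.13 (adjusted p = 0.866, limma). Probe sets 1422702_at and 1430984_at gave differences of 0.15 ± 0.08 and 0.20 ± 0.10 (SE, adjusted p = 0.108 and adjusted p = 0.0964 over all probe sets, limma).

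**Figure D2:**
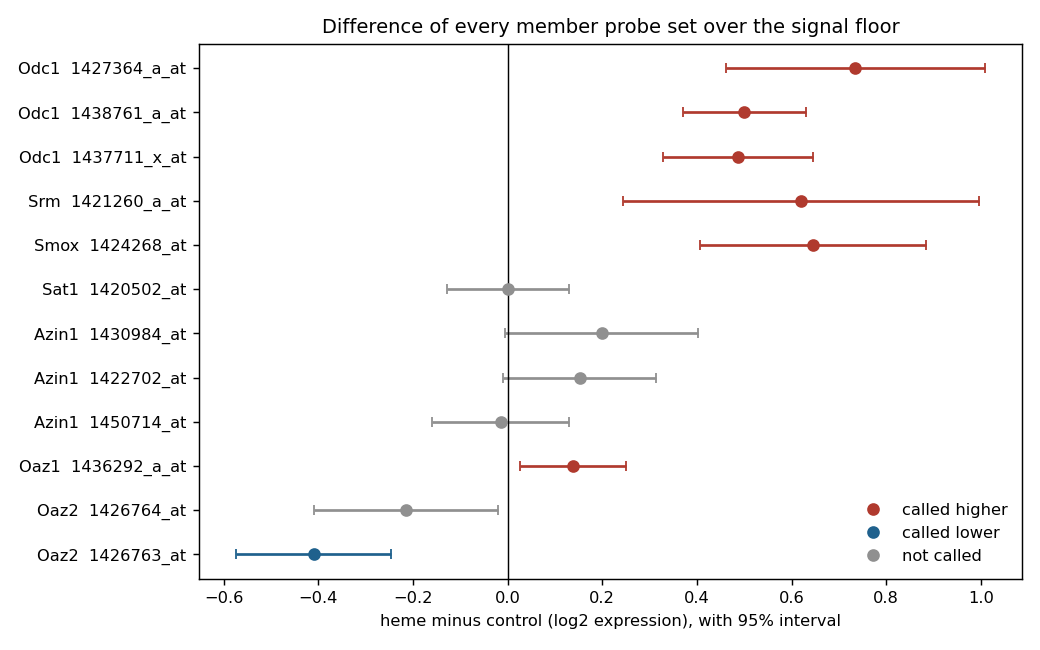
Log2 difference, heme minus control, of the 12 member probe sets over the signal floor, with 95% intervals, grouped by gene; red marks called higher, blue called lower and grey not called. The 3 Odc1 probe sets lie to the right of 0, from 0.49 to 0.73, and the 2 Oaz2 probe sets to the left, at -0.21 and -0.41.

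Of the 14 member probe sets 12 were over the floor, and 6 of them were called higher, 1 lower and 5 neither. Among all 15717 probe sets over the floor, 26.1% were called higher and 24.3% lower. Where a gene had several probe sets over the floor, as Odc1, Azin1 and Oaz2 did, the intervals of those probe sets overlapped within each gene.

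Around the members, 8 lists held 43 tested genes that are not members: genes that supply, move or use polyamines, and 8 genes of Myc and its partners. Of these 43 genes 20 were called higher, 7 lower and 16 neither, beside 27.2% called higher and 26.4% called lower among all tested genes. The median log2 difference was 0.18 over the 43 and -0.01 over all tested genes, and the counts of single lists below are to be read beside the same shares. Where groups did not overlap below, the shares over all tested genes were 11.2% upwards and 8.93% downwards. Oaz3, Azin2, Sat2 and Satl1, the other antizyme, inhibitor and acetyltransferase genes on the array, were not over the floor on enough arrays to be tested.

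**Figure D3:**
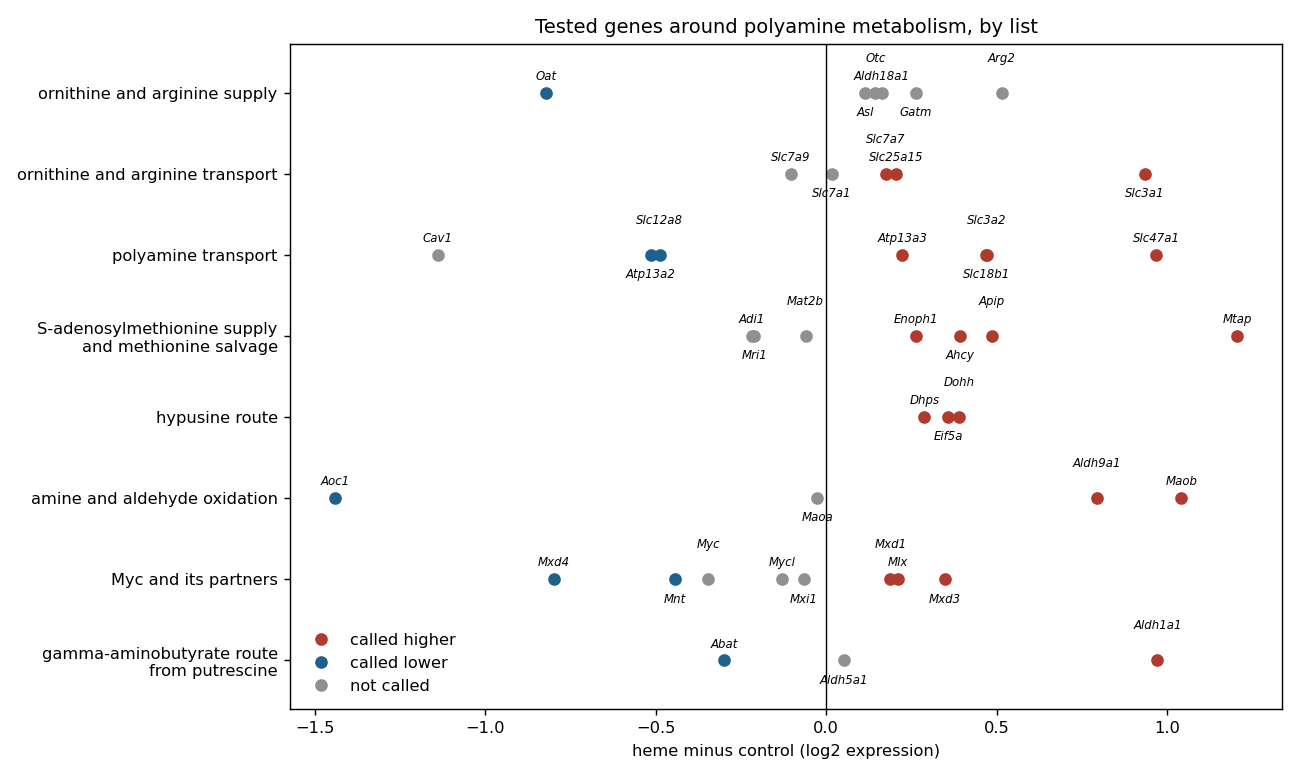
Log2 difference, heme minus control, of the 43 tested genes of the 8 neighbouring lists, 1 row per list and 1 point per gene; red marks called higher, blue called lower and grey not called. Aoc1 lies farthest to the left at -1.44, Mtap farthest to the right at 1.21, and the 3 hypusine genes lie together between 0.29 and 0.39.

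Ornithine, the substrate of ODC1, is also used by other enzymes, and the largest change there was a fall. Oat, the mitochondrial ornithine aminotransferase, had a lowest value of 11.16, a median of 11.36 and a highest value of 11.48 in heme mice, against 11.87, 12.15 and 12.42 in control mice. Every heme mouse lay below every control. Oat fell by 0.82 ± 0.08 (log2, SE, adjusted p = 5.59e-07, limma), a level 43.5% lower. It was the only one of 6 tested genes of ornithine and arginine supply that was called. Arg2, the mitochondrial arginase that makes ornithine, differed by 0.51 ± 0.26 (SE, adjusted p = 0.111, limma), with 8.15 to 10.24 in controls, a range that held all heme mice. Arg2 was called higher without control mouse 1 (0.67, adjusted p = 0.0456), without control mouse 4 (0.72, adjusted p = 0.0198) and with array weights (0.71, adjusted p = 0.0186). Without control mouse 7 it was at 0.30 (adjusted p = 0.299), and under the smooth muscle covariate at 0.06 (adjusted p = 0.915).

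Transporters went both ways. Of 5 tested genes of ornithine and arginine transport 3 were called higher, among them the mitochondrial ornithine carrier Slc25a15 by 0.20 ± 0.05 (log2, SE). Slc3a1, a subunit of a transporter for dibasic amino acids and cystine, rose by 0.93 ± 0.26 (adjusted p = 0.0072, limma), but was at 0.02 (adjusted p = 0.951) with the smooth muscle covariate. Of 7 tested genes of polyamine transport 4 were called higher and 2 lower. Slc18b1, a vesicular polyamine transporter, rose by 0.47 ± 0.07, and Slc3a2, the heavy chain of several amino acid exchangers, by 0.47 ± 0.07, each with all 9 heme mice above all controls. Atp13a2, which moves polyamines out of lysosomes, fell by 0.51 ± 0.08 (adjusted p = 5.63e-05, limma), with all 9 heme mice below all controls.

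Slc12a8 fell by 0.49 ± 0.12 (log2, SE), with 4 of 9 heme mice below all controls, and was at -0.76 with the smooth muscle covariate. Slc47a1, an exporter of organic cations, had the largest rise of that list (0.97 ± 0.26, adjusted p = 0.00517, limma) at levels near the floor. The floor was passed in 8 of 9 heme mice and 2 of 6 controls. Slc47a1 was thus tested only because of the group where it was high, so its call is not used as support. It is among the genes counted as higher in its list and in the 20 of 43. Slc47a1 was at 0.42 (adjusted p = 0.376, limma) with that covariate.

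Spermidine and spermine synthesis releases methylthioadenosine, which the methionine salvage pathway recycles. Of 7 tested genes of S-adenosylmethionine supply and methionine salvage 4 were called higher and 0 lower (limma; the other 3 were not called), beside 27.2% higher and 26.4% lower among all tested genes. Mtap, which cleaves methylthioadenosine, had a lowest value of 5.62, a median of 5.93 and a highest value of 6.69 in heme mice, against 4.39, 5.00 and 5.34 in control mice. The groups did not overlap, and such separation upwards was seen for 11.2% of all tested genes. The log2 difference was 1.21 ± 0.19 (SE), or 2.31-fold (adjusted p = 9.76e-05, limma). Control values lay near the floor of 4.32, and Mtap was not tested at the floor of 100. With its probe sets averaged Mtap was at 0.83 (adjusted p = 1.36e-04, limma). Enoph1, a later enzyme of the same salvage route, rose by 0.26 ± 0.06. Ahcy, which removes S-adenosylhomocysteine, rose by 0.39 ± 0.07, but lost its call at 0.24 under the smooth muscle covariate (adjusted p = 0.0708).

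Spermidine is also the donor for hypusine, a modified lysine found in the translation factor EIF5A. All 3 tested genes of this route were called higher, as were 27.2% of all tested genes, and 3 genes are too few to set the route apart. Eif5a had a lowest value of 13.70, a median of 13.92 and a highest value of 14.10 in heme mice, against 13.46, 13.56 and 13.62 in control mice, with no overlap. Its log2 difference was 0.36 ± 0.06 (SE, adjusted p = 1.35e-04, limma). Dohh, which completes hypusine, rose by 0.39 ± 0.07 (adjusted p = 4.11e-04), and by 0.16 with its probe sets averaged (adjusted p = 0.045). Dhps, which starts it, rose by 0.29 ± 0.07 (adjusted p = 0.00213), but lost its call at 0.20 under that covariate (adjusted p = 0.138).

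The largest change among the neighbouring genes was in Aoc1, the secreted diamine oxidase that breaks down putrescine and histamine. Its log2 expression had a lowest value of 10.33, a median of 10.58 and a highest value of 11.08 in heme mice, against 11.95, 12.08 and 12.15 in control mice. The diets were separated by more than the whole spread of either group. Aoc1 fell by 1.44 ± 0.09 (SE, adjusted p = 2.15e-08, limma), a level 63.1% lower, and over all alternatives it stayed between -1.54 and -1.33.

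Of the other oxidases and aldehyde dehydrogenases that can act further along, Maob, Aldh9a1 and Aldh1a1 rose, and Maoa and Aldh5a1 were not called. Maob, a monoamine oxidase, was at 9.28 to 9.85 in heme mice and 8.22 to 8.86 in control mice, a log2 difference of 1.04 ± 0.11 (SE, adjusted p = 2.74e-06, limma). Aldh9a1, which oxidises aminobutyraldehyde, was at 11.69 to 11.99 in heme mice and 10.97 to 11.20 in control mice, a difference of 0.79 ± 0.06 (adjusted p = 7.69e-08, limma). The related monoamine oxidase Maoa was not called (-0.03 ± 0.07). On the route from putrescine to gamma-aminobutyrate, Aldh1a1, better known as a retinaldehyde dehydrogenase, rose by 0.97 ± 0.14, and by 0.59 with the smooth muscle covariate. Abat, which breaks gamma-aminobutyrate down, was called lower at -0.30 ± 0.11 (adjusted p = 0.0367, limma). That call was lost without heme mouse 3, 6, 7 or 9 or control mouse 2, 3, 6 or 7, each left out singly, with Abat between -0.22 and -0.30. It was also lost in 6 of the other 13 alternatives, with Abat at -0.08 (adjusted p = 0.741) under the smooth muscle covariate and at -0.08 (adjusted p = 0.402) with its probe sets averaged.

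**Figure D4:**
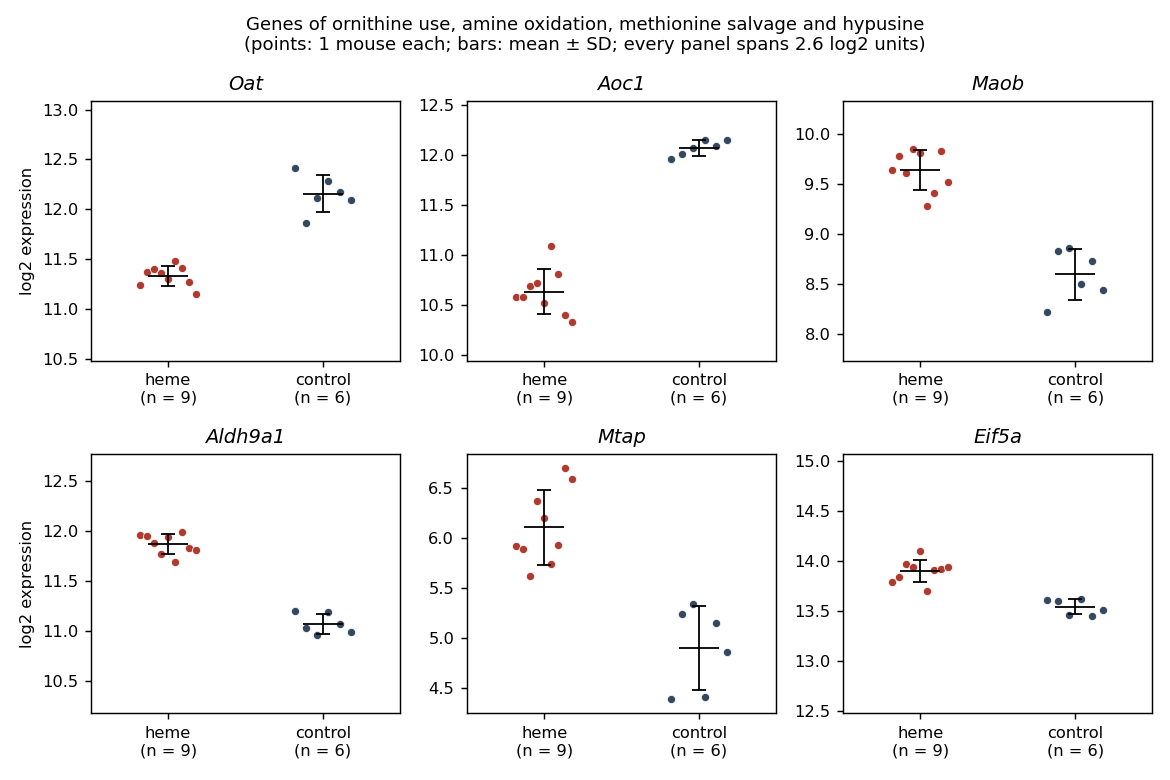
Log2 expression of 6 neighbouring genes in heme mice (left, 9) and control mice (right, 6); points are single mice, bars are the mean with SD, and every panel spans the same height. Oat and Aoc1 lie lower and Maob, Aldh9a1, Mtap and Eif5a higher in all 9 heme mice than in any of the 6 controls. The 6 genes were picked from 43, and other called genes of these lists overlap between diets. Among all tested genes 11.2% separate upwards and 8.93% downwards.

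Odc1 is a textbook target of the transcription factor Myc, whose own transcript was not called. Myc had a lowest value of 6.29, a median of 6.86 and a highest value of 7.50 in heme mice, against 6.65, 7.18 and 7.95 in control mice. The difference was -0.35 ± 0.21 (log2, SE, adjusted p = 0.181, limma), and 0.25 (adjusted p = 0.491) with the smooth muscle covariate. Of 8 tested genes of Myc and its partners 3 were called higher and 2 lower. Mxd4, which pairs with Max and opposes Myc, fell by 0.80 ± 0.17 (adjusted p = 9.02e-04), with all 9 heme mice below all controls. With its probe sets averaged Mxd4 was at -0.48. Mxd3, of the same family, rose by 0.35 ± 0.10 (adjusted p = 0.00837), with 0.20 when its probe sets were averaged and 0.63 with the smooth muscle covariate.

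Mice within a diet also differed in Odc1. Over deviations from the mean of each diet in all 15 mice, the tested genes most like Odc1 among 9256 were Esco2 (Pearson r = 0.80), Rad21 (0.80), Bcas2 (0.78), Dpm2 (0.78) and Ctc1 (0.76). These values rest on probe set 1437711_x_at, whose deviations correlated with those of the other Odc1 probe sets at 0.48 (1438761_a_at) and 0.34 (1427364_a_at), while these correlated with each other at 0.75. The 5 genes thus followed this probe set more closely than the other Odc1 probe sets did, and they are the highest of all values searched. With any 1 mouse left out r for Esco2 ran from 0.64 to 0.90. Among the other members r with Odc1 was 0.25 for Azin1, 0.17 for Sat1, -0.11 for Oaz2, -0.13 for Srm, -0.52 for Oaz1 and -0.55 for Smox. The points share their arrays and their normalization, and these values describe the 15 mice only. Smox tended to fall with sample number within each diet. With that number as a covariate the SE of its difference was 0.08, against 0.11 in the main fit. The part of sample order in these correlations was not tested.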

How the data were processed

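Gene expression was measured in colon scrapings of 15 mice (9 heme, 6 control) with 1 Affymetrix array each. Per the submitters' processing notes the authors used GCRMA 2.22.0. Each probe set thus has a deposited log2 value. The sources used here give no further steps; the number of arrays limits the precision. Here probe sets were named by the array annotation (34958 with 1 symbol, 932 with several, 9211 not listed), and heme was compared with control over all 9257 tested genes, or 15717 probe sets, with limma 3.58.1 in R 4.3.3 (lmFit, eBayes, Benjamini-Hochberg). The fit was tested on simulated data with known changes.

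The members and lists were chosen with earlier results of these data known. Named by rule were all members, the called gene with the largest rise and fall of each list, and the 5 genes most like Odc1. Myc, Eif5a, Dhps, Slc25a15, Slc18b1, Slc3a2, Slc12a8, Aldh5a1, Enoph1, Ahcy, Aldh9a1, Maoa and Arg2 were named after their values were seen. Replicate numbers are shared by 6 heme and 6 control mice. The deviations of mice with the same number correlated above 0.1 in 1 of 6 pairs, over a range of -0.19 to 0.20. This gave no clear sign of a pairing but cannot exclude one, and the main fit took the mice as unpaired. Alternatives were no signal filter, a floor of 100, averaged probe sets, adjustment over all probe sets, array weights, quantile normalization, a robust fit with variance trend, median centring, replicate block, sample number or smooth muscle markers as a covariate, and leaving out single mice, control mouse 2 with heme mouse 6, or these with control mouse 4.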

Additional observations from a re-analysis of the deposited data

Results flagged for a closer look

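In 52 checks for a mouse far from the rest of its group, 2 values stood out, and chance gives about 1 in 20. Probe set 1430984_at of Azin1 was at 5.62 in control mouse 3, above 4.87 to 5.11 in the other controls. Mxd4 was at 7.67 in heme mouse 9, below 8.78 to 9.05 in the other heme mice, and its fall was -0.66 without that mouse. No cause was tested for either.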

How the results depend on the processing

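Under all 28 alternatives the count of members called higher was 3 or 4 and that of members called lower was 1. The count of all genes called higher ran from 1766 to 2898 and that of genes called lower from 1738 to 2765. Odc1 (0.44 to 0.58), Oaz2 (-0.46 to -0.23) and Smox (0.35 to 0.73) stayed called in all 28, and Sat1 and Azin1 in none. The replicate block groups mice by number, though a pairing by number was not established. It took away the calls of Srm (0.51, adjusted p = 0.0865, limma), Slc3a1 (0.94, adjusted p = 0.0531), Slc47a1 (1.01, adjusted p = 0.0505) and Abat (-0.32, adjusted p = 0.123). It changed no other call among the 30 genes followed. Over these genes 799 of 834 alternative values kept direction and call, and no called value turned its direction. With control mice 2 and 4 and heme mouse 6 left out, the members called were again 4 higher and 1 lower. For Slc12a8, with probe sets averaged, the difference was -0.31, and for Dhps 0.43. Probe sets under the floor limit what can be said of Oaz2 and Smox to 2 and 1 probe sets.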
